A study of Mus musculus with 594 samples.

Results

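The genes described here are 7 interferon-stimulated genes of the mouse: Rsad2, Usp18, Cxcl10, Isg15, Ifit1, Ifit3 and Irf7. They were taken by name from the probe sets of an Affymetrix mouse array and followed across 29 compounds in 2 cell lines. Of the 7, 6 had a probe set annotated to that gene alone, among 11807 genes measured in this way. Isg15 was not analysed here. Rsad2 had 3 such probe sets and each of the other 5 measured genes had 1.

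The cell lines were αTC1, derived from a glucagon-producing tumour, and βTC3, derived from an insulin-producing tumour of transgenic mice that express a viral oncoprotein in islet cells. Each is a single line, so the arrays of a group do not stand for separate animals. Cells were exposed for 1, 6 or 24 h to 1 compound at 1 dose or to DMSO, the solvent that all groups received. The deacetylase inhibitors with a chemical name were 8 hydroxamic acids (trichostatin A at 0.22 µM, SAHA at 1.3 µM, LBH-589 at 0.015 µM, PXD101 at 2.4 µM, ITF-2357 at 10 µM, CRA-024781 at 1.5 µM, pyroxamide at 10 µM and scriptaid at 2 µM), 3 ortho-amino anilides (MS-275 at 2.9 µM, CI-994 at 10 µM and MGCD-0103 at 1.1 µM) and 2 cyclic tetrapeptides (apicidin at 1.4 µM and HC-toxin at 0.12 µM). A further 10 compounds carried code names: BRD-A94377914 (3 µM), BRD-K17311666 (4.3 µM), BRD-K22912318 (5 µM), BRD-K62233722 (3.7 µM), BRD-K90919562 (4.1 µM), BRD-K92415738 (3.2 µM), BRD5298 (10 µM), BRD6929 (0.91 µM), BRD8451 (10 µM) and BRD9773 (10 µM). The other 6 were chaetocin (1.7 µM), an inhibitor of histone lysine methyltransferases, and, at 10 µM each, BIX-01294, of the same kind, the arginine methyltransferase inhibitor AMI-1, the DNA methylation inhibitor 5-azadeoxycytidine, zebuarine and RG-0108.

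The 299 αTC1 arrays and 295 βTC3 arrays comprised 3 arrays per compound, line and time, except that 5 groups of αTC1 at 24 h (BRD-K62233722, BRD-K92415738, CI-994, SAHA and scriptaid) had 2 and chaetocin there had 4. DMSO had 14 arrays at each time in αTC1, and 12, 10 and 12 arrays at 1, 6 and 24 h in βTC3. Array medians over all probe sets lay between 4.36 and 4.73 on the log2 scale, and the median of all gene values on all arrays was 4.92. The lines differed in their defining genes as labelled: among DMSO arrays, Gcg averaged 12.43 ± 0.21 in αTC1 and 9.24 ± 1.26 in βTC3, and Ins2 4.53 ± 1.19 in αTC1 and 13.24 ± 0.10 in βTC3 (log2 intensity, SD, n = 42 and 34). Of the other markers listed for the lines, Ttr went the other way (11.47 in αTC1 and 12.87 in βTC3), and Slc38a5 (3.19 and 3.23) and Slc2a2 (2.88 and 3.04) were low in both. Averages of the 6 leukocyte markers ran from 2.78 (Ptprc) to 4.09 (Cd68) in αTC1 and from 2.76 (Lyz2) to 3.76 (Csf1r) in βTC3. Each array measured the RNA of a whole well, so a change in all cells and a change in some of them cannot be told apart.

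Type I interferons bind a receptor on the cell surface that signals through the kinases Jak1 and Tyk2 to transcription factors, Stat2 and Irf9 among them, that bind a repeated GAAA motif, the interferon-stimulated response element, near the start of antiviral genes. Among those genes, Rsad2 encodes viperin, a radical SAM enzyme of the endoplasmic reticulum that makes a chain-terminating nucleotide. Cxcl10 encodes a chemokine that attracts T cells, and Ifit1 and Ifit3 encode proteins that restrict foreign RNA. Irf7 encodes a transcription factor that amplifies interferon production, and Usp18 encodes a protease that removes Isg15 from proteins and dampens receptor signalling. In islets this response is studied as part of the inflammation that accompanies autoimmune diabetes.

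The promoters of 3 members are shown because each holds a match to this motif at a different place. The sequences are the 250 bases before the start of each gene, from RefSeq on the assembly GRCm38.p6, 5′ to 3′ along the gene's strand. Capitals mark matches to GAAANNGAAA on either strand, and a match on the opposite strand reads TTTCNNTTTC. The windows are chr12:26456453-26456702 (minus strand) for Rsad2, chr5:92348890-92349139 (minus strand) for Cxcl10 and chr19:34640639-34640888 (plus strand) for Ifit1.
Rsad2: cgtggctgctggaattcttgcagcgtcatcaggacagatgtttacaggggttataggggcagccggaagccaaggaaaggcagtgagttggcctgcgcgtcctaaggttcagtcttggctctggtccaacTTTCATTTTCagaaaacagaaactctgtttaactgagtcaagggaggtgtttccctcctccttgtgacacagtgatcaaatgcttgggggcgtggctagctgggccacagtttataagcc
Cxcl10: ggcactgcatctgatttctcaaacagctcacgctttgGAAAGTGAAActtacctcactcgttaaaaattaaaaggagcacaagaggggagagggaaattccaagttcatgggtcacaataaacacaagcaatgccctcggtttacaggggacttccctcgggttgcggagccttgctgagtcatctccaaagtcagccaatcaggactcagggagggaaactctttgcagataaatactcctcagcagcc
Ifit1: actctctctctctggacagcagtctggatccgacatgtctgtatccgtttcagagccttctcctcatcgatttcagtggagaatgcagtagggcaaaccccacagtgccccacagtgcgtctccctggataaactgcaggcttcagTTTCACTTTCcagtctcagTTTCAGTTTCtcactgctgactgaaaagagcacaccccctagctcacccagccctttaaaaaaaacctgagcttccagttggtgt
The match begins 120 bases before the start in Rsad2 and 213 in Cxcl10, and the pair in Ifit1 begins 104 and 85 bases before it. Among the other promoters searched, that of Isg15 holds 3 matches and that of Ifit3 holds 2. The promoters of Irf7 and of Cmpk2, the gene next to Rsad2, hold 0. The windows searched for Irf7 and Cmpk2 reach into the span of the gene, and that of Ifit3 lies within it. For these genes the bases before the outermost start were therefore not fully searched. No promoter of Usp18 was available. Of 32851 promoters of this length in the table, 978 (2.98%) hold a match. A match describes the letters and does not show that a factor binds there.

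Rsad2 rose under most compounds from 6 h on, in both lines, and no compound lowered it. Counts of compounds use limma with Benjamini-Hochberg adjustment over all genes, where an adjusted p under 0.05 is called. At 1 h none of the 29 compounds changed any measured member in either line by limma. At an unadjusted p under 0.05 there were 7 rises and 10 falls among 348 pairs of member and compound. The shares of all pairs of gene and compound called at 1 h were 0.0216% up and 0.0111% down in αTC1, and 0.071% up and 0.0234% down in βTC3.

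In αTC1, 22 of 29 compounds raised Rsad2 at 6 h and 21 at 24 h. In βTC3 the numbers were 19 and 24. The shares of all pairs of gene and compound called up were 11.2% and 10.6% in αTC1 and 11.3% and 9.49% in βTC3 at these times. Genes raised by as many compounds as Rsad2 or more, Rsad2 among them, made up 0.0169% of genes in αTC1 at 6 h, 0.237% in αTC1 at 24 h, 0.669% in βTC3 at 6 h and 0.00847% in βTC3 at 24 h, the last being Rsad2 itself. All 13 deacetylase inhibitors with a chemical name raised it at 6 h in both lines, and 12 of 13, all but scriptaid, did so at 24 h. Of the 10 compounds with code names, 8 raised it in αTC1 at each time (7 of them at both), and 5 at 6 h and 9 at 24 h in βTC3. Among the other 6 compounds, chaetocin raised it in both lines at both times, and 5-azadeoxycytidine and BIX-01294 did so in βTC3 at 24 h. Rsad2 was not called under AMI-1, RG-0108 or zebuarine.

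**Figure D1:**
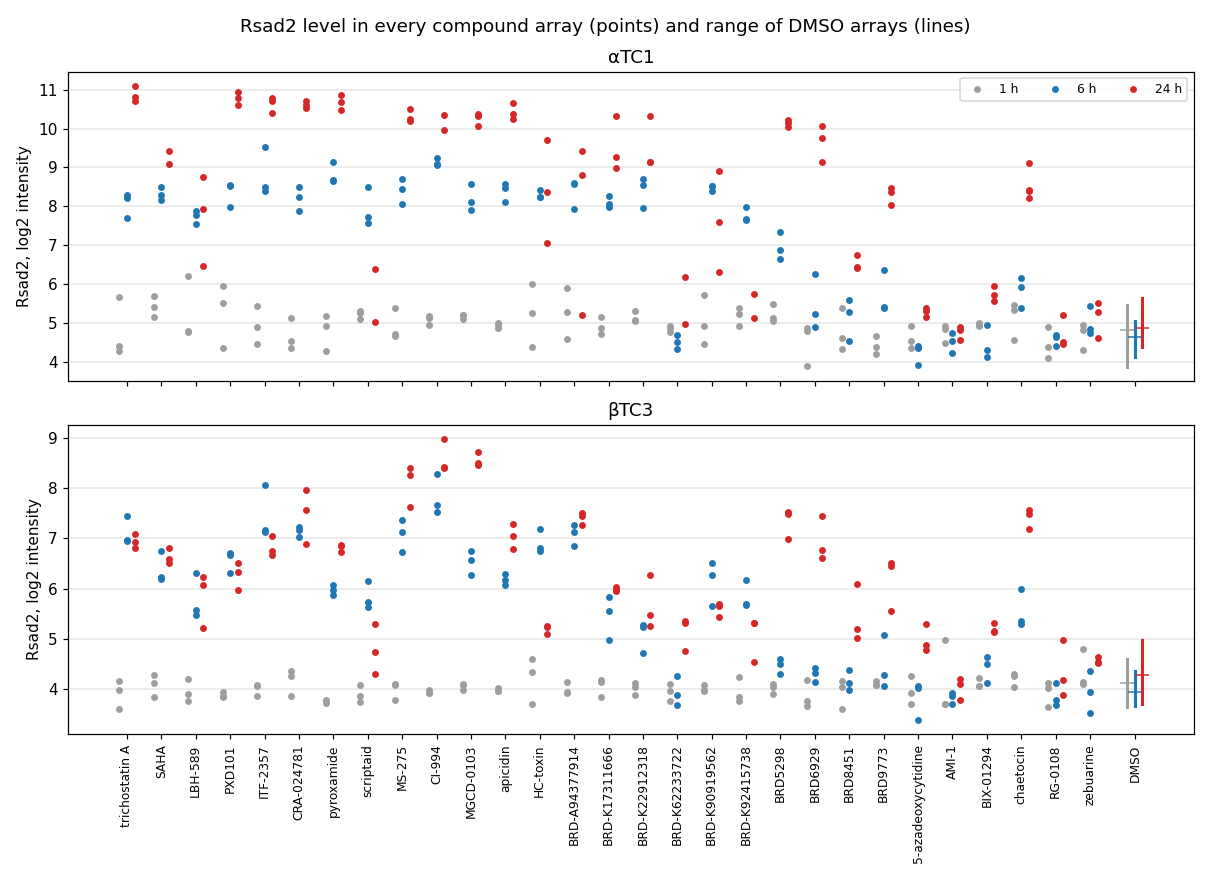
Rsad2 log2 intensity (y axis) on each array of 29 compounds (points) and the range and median of the DMSO arrays (vertical lines with a bar, at the right), with αTC1 above and βTC3 below and time by colour. At 24 h the arrays of trichostatin A in αTC1 sit between 10.72 and 11.10, all above the highest DMSO array at 5.63.

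The values behind these calls were as follows. With trichostatin A at 24 h Rsad2 measured 11.10, 10.81 and 10.72 on the 3 arrays of αTC1, against 4.39 to 5.63 with a median of 4.86 on 14 DMSO arrays. The change was 6.04 ± 0.37 (log2, SE), the largest of any compound and line, with an adjusted p of 1.24e-22. All 3 arrays lay far above every DMSO array. In βTC3 the largest change came with CI-994, an anilide, where the arrays read 8.98, 8.41 and 8.41 against 3.71 to 4.99 with a median of 4.28 on 12 DMSO arrays. The change was 4.21 ± 0.19 (adjusted p = 1.1e-29), and again no array overlapped DMSO.

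By class, Rsad2 measured 7.54 to 9.53 (median 8.30) on 24 hydroxamic acid arrays and 7.91 to 9.25 (median 8.58) on 9 anilide arrays of αTC1 at 6 h, against 4.12 to 5.05 (median 4.63) on 14 DMSO arrays. The class changes were 3.66 ± 0.10 for hydroxamic acids (adjusted p = 5.26e-45) and 3.90 ± 0.14 for anilides (adjusted p = 6.91e-37). At 24 h it measured 5.01 to 11.10 (median 10.61) on 22 hydroxamic acid arrays and 9.97 to 10.52 (median 10.28) on 8 anilide arrays. The changes were then 4.65 ± 0.20 (adjusted p = 1.47e-31) and 5.17 ± 0.28 (adjusted p = 4.89e-26). Of the 22 hydroxamic acid arrays, 21 lay above the highest DMSO array, and the exception was a scriptaid array. Cyclic tetrapeptides changed Rsad2 by 3.70 ± 0.15 at 6 h and 4.58 ± 0.29 at 24 h.

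In βTC3 at 6 h Rsad2 measured 5.47 to 8.05 (median 6.49) on 24 hydroxamic acid arrays and 6.26 to 8.28 (median 7.12) on 9 anilide arrays, against 3.67 to 4.35 (median 3.94) on 10 DMSO arrays. The changes were 2.54 ± 0.10 for hydroxamic acids (adjusted p = 1.36e-34) and 3.13 ± 0.13 for anilides (adjusted p = 2.43e-31). At 24 h they were 2.15 ± 0.10 (adjusted p = 6.23e-30) and 4.09 ± 0.13 (adjusted p = 4.04e-39). The hydroxamic acid arrays then reached from 4.30 to 7.97 (median 6.69), and 22 of 24 lay above every DMSO array, while all 9 anilide arrays, from 7.62 to 8.98, did so. Of all genes, hydroxamic acids raised 26.6% and anilides 12.7% in αTC1 at 6 h, and 26.1% and 21.2% at 24 h. In βTC3 hydroxamic acids raised 26.2% and anilides 12.9% at 6 h, and 22.5% and 22% at 24 h.

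The 2 further probe sets of Rsad2 changed in the same direction, by less. At 24 h hydroxamic acids changed them by 3.47 and 3.94 in αTC1 and by 0.76 and 0.94 in βTC3, and anilides by 4.0 and 4.30 in αTC1 and by 2.30 and 2.64 in βTC3. Every one of these changes was called. Within single batches, named in the array titles, the difference of hydroxamic acid and DMSO arrays at 24 h lay between 3.03 and 6.09 in αTC1 and between 1.26 and 3.17 in βTC3, positive in 7 of 7 batches of each line. That of anilides lay between 4.81 and 5.45 in 3 batches of αTC1 and between 3.61 and 4.26 in 4 batches of βTC3.

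Arrays of 1 compound differed widely in some αTC1 groups at 24 h. With BRD-A94377914 Rsad2 measured 5.19, 9.43 and 8.81, so that 1 of 3 arrays lay inside the DMSO range. It measured 9.70, 7.05 and 8.37 with HC-toxin, 7.92, 6.46 and 8.76 with LBH-589, and 8.90, 6.30 and 7.60 with BRD-K90919562. The arrays of the last 3 compounds all lay above the DMSO range but spanned more than 2 log2 units in each group.

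The response of Rsad2 continued, stayed or faded with time, depending on the compound. In αTC1 the change at 24 h exceeded that at 6 h by 0.96 ± 0.23 for hydroxamic acids (adjusted p = 0.000469) and by 1.38 ± 0.30 for anilides (adjusted p = 6.47e-05). In βTC3 it exceeded it by 0.99 ± 0.18 for anilides (adjusted p = 1.54e-06), whereas for hydroxamic acids the difference was -0.40 ± 0.14 (adjusted p = 0.0216). Changes between the times were called for 29.8% and 35.7% of genes in αTC1 and 33.6% and 29.6% in βTC3 under hydroxamic acids and anilides.

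Scriptaid was the hydroxamic acid whose effect was called at 6 h and not at 24 h. In αTC1 Rsad2 measured 8.51, 7.72 and 7.57 at 6 h with scriptaid, and 6.39 and 5.01 at 24 h on the 2 arrays. The change at 6 h was 3.26 ± 0.19 and that at 24 h 0.82 ± 0.45, which was not called (adjusted p = 0.627), and the difference of 24 h and 6 h was -2.49 ± 0.48 (adjusted p = 2.4e-05). In βTC3 this difference was -1.38 ± 0.26 (adjusted p = 7.55e-06). BRD6929 showed the opposite order. With it Rsad2 measured 5.23, 6.27 and 4.89 in αTC1 at 6 h, and 9.15, 9.75 and 10.07 at 24 h. The difference of the changes at 24 h and 6 h was 3.88 ± 0.44 in αTC1 (adjusted p = 4.16e-12) and 2.39 ± 0.26 in βTC3 (adjusted p = 5.88e-13). For scriptaid, 18.7% of genes in αTC1 and 20.6% in βTC3 changed between these times, and for BRD6929 14.2% and 12.2%.

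The 2 main structural classes differed in βTC3. At 24 h the change of Rsad2 under hydroxamic acids minus that under anilides was -1.94 ± 0.12 (adjusted p = 1.47e-22). In αTC1 the same difference was -0.52 ± 0.27 and not called (adjusted p = 0.147), although it was called without the batch term, at -0.72 (adjusted p = 0.0318). Anilide arrays of αTC1 at 24 h lay only in batches 4, 5 and 6. There Rsad2 averaged 8.76, 8.64 and 7.82 on 1, 4 and 4 hydroxamic acid arrays. On 3, 2 and 3 anilide arrays it averaged 10.33, 10.42 and 10.08. In batches 7 to 10, without anilides, hydroxamic acid arrays averaged 10.68 to 10.73. The class means of αTC1 thus draw on different batches, and the parts of batch and compound were not tested. Of all genes, 27.6% in αTC1 and 32.5% in βTC3 differed between the classes. Doses differed between the compounds, so these are differences of compounds at their doses.

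The anilide CI-994 and the hydroxamic acids ITF-2357 and pyroxamide were all used at 10 µM, which gives 3 pairs at a matched dose. In αTC1 at 6 h CI-994 shared no batch with either hydroxamic acid. Its differences from them there rest on the batch term and the DMSO arrays. Anilide arrays of αTC1 at 24 h and of βTC3 at 6 h also lay only in batches 4, 5 and 6. Those of βTC3 at 24 h lay in batches 4, 5, 6 and 10. The differences of CI-994 in these settings therefore also draw on the batch term, and the parts of batch and compound were not tested. In βTC3 at 6 h Rsad2 was higher with CI-994 than with pyroxamide, by 1.83 (95% interval 1.37 to 2.29, adjusted p = 1.94e-09), and higher with ITF-2357 than with pyroxamide, by 1.47 (1.06 to 1.89, adjusted p = 1.08e-06). CI-994 minus ITF-2357 was 0.35 (-0.11 to 0.81, adjusted p = 0.268) and not called. In αTC1 at 6 h the differences of CI-994 from ITF-2357 and from pyroxamide were 0.24 (-0.27 to 0.74) and 0.22 (-0.28 to 0.73), and that of ITF-2357 from pyroxamide -0.01 (-0.47 to 0.45), none of them called. Taken in the order CI-994 minus ITF-2357, CI-994 minus pyroxamide and ITF-2357 minus pyroxamide, the pairs differed at 6 h in 30.1%, 30.2% and 0.788% of genes in αTC1 and in 36.4%, 30.1% and 5.12% in βTC3. In βTC3 at 24 h Rsad2 was higher with CI-994 than with ITF-2357, by 1.49 (95% interval 0.97 to 2.01, adjusted p = 1.01e-05), and than with pyroxamide, by 1.64 (1.15 to 2.14, adjusted p = 1.12e-06). In αTC1 the differences were -0.71 (-1.80 to 0.39, adjusted p = 0.439) and -0.69 (-1.79 to 0.41, adjusted p = 0.512), so neither sign nor equality was shown. ITF-2357 minus pyroxamide was 0.02 (-0.92 to 0.96) in αTC1 and 0.15 (-0.33 to 0.63) in βTC3, not called in either line. Usp18 separated all 3 pairs in αTC1 at 24 h: it was higher with CI-994 than with ITF-2357 by 1.69 (1.20 to 2.19, adjusted p = 2.57e-07) and than with pyroxamide by 0.93 (0.43 to 1.43, adjusted p = 0.0058), and ITF-2357 minus pyroxamide was -0.76 (-1.18 to -0.33, adjusted p = 0.0398). In the same order, the pairs differed at 24 h in 21.4%, 15.2% and 2.34% of genes in αTC1 and in 20.8%, 12.8% and 16.3% in βTC3.

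The other measured members rose under fewer compounds and by smaller amounts. Among the 145 pairs of the other 5 members and 29 compounds, 36 were called up in αTC1 at 6 h and 58 at 24 h, and 32 and 34 in βTC3. In αTC1 limma called 0 down at either time (1 at 6 h and 1 at 24 h at an unadjusted p under 0.05), whereas 5 were called down in βTC3 at 6 h and 7 at 24 h, all of Usp18. Of all pairs of gene and compound, 9.58% and 10.7% were called down in αTC1 and 10.7% and 8.73% in βTC3 at 6 and 24 h. Where Rsad2 rose, it had the largest change of the 6 members under 22 of 22 and 21 of 21 compounds in αTC1, and under 19 of 19 and 23 of 24 in βTC3. The exception was 5-azadeoxycytidine in βTC3 at 24 h, where Cxcl10 changed by 0.96 and Rsad2 by 0.78. This order rests on the brightest probe set of Rsad2: by the other probe sets the hydroxamic acid effect in βTC3 at 24 h, 0.76 and 0.94, was close to the 0.71 of Ifit3. The DMSO medians of Cxcl10, Ifit1, Ifit3 and Irf7 in αTC1 at 24 h (3.00, 2.83, 2.75 and 3.03) lay near the low end of the array, where 5% of all gene values lie below 2.72, and probe sets of different genes are not on a common scale, so the order of members is a description.

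**Figure D2:**
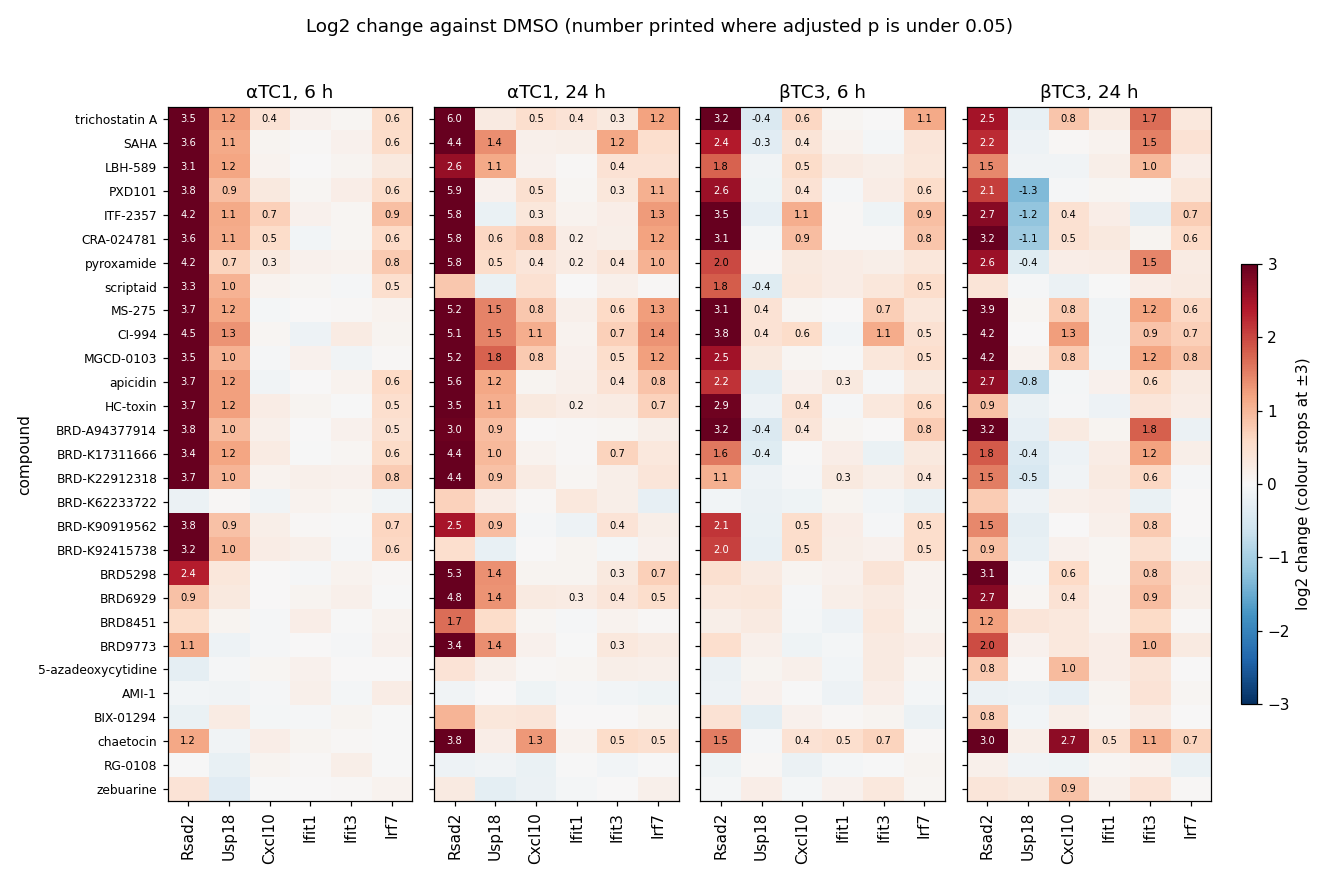
Log2 change against DMSO for the 6 measured members (columns) under 29 compounds (rows), in αTC1 and βTC3 at 6 and 24 h, with the value printed where the adjusted p was under 0.05. The Rsad2 column is filled under most compounds, Usp18 is raised in αTC1 and partly lowered in βTC3, and Ifit1 is nearly empty.

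Under most compounds that raised Rsad2, at least 1 other member was called up too. Of all pairs of gene and compound, 11.2% and 10.6% were called up in αTC1 and 11.3% and 9.49% in βTC3, at 6 and 24 h. As a class, hydroxamic acids raised 26.6% of all genes in αTC1 at 6 h. Whether these counts exceed those of other sets of 5 genes was not tested. In αTC1 Rsad2 was the only member called up under 4 of 22 compounds at 6 h (BRD5298, BRD6929, BRD9773 and chaetocin) and under 1 of 21 at 24 h (BRD8451). In βTC3 it was the only member called up under 2 of 19 at 6 h (BRD-K17311666 and pyroxamide) and under 5 of 24 at 24 h (BIX-01294, BRD-K92415738, BRD8451, HC-toxin and PXD101). There Irf7 rose at an unadjusted p under 0.05 in limma with pyroxamide at 6 h (0.33) and with PXD101 at 24 h (0.33). All 5 others joined Rsad2 under 1 compound, pyroxamide in αTC1 at 24 h. Conversely, 1 compound raised another member without Rsad2, zebuarine in βTC3 at 24 h, where Cxcl10 measured 4.63, 3.86 and 4.42 against 3.02 to 3.65 on 12 DMSO arrays (change 0.88 ± 0.16, adjusted p = 0.000156).

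The members called beside Rsad2 were as follows in each line. In αTC1 at 6 h Usp18 rose with it under 18 compounds, Irf7 under 14 and Cxcl10 under 4, and neither Ifit gene was called, with 1 rise of Ifit1 and 2 of Ifit3 at an unadjusted p under 0.05 in limma. At 24 h Usp18 joined under 16, Ifit3 under 15, Irf7 under 13, Cxcl10 under 9 and Ifit1 under 5. In βTC3 at 6 h Cxcl10 and Irf7 joined under 12 each, Ifit1 and Ifit3 under 3 each and Usp18 under 2. At 24 h Ifit3 joined under 16, Cxcl10 under 10, Irf7 under 6, Ifit1 under 1 and Usp18 under 0, with Usp18 raised by 2 compounds at an unadjusted p under 0.05 in limma.

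**Figure D3:**
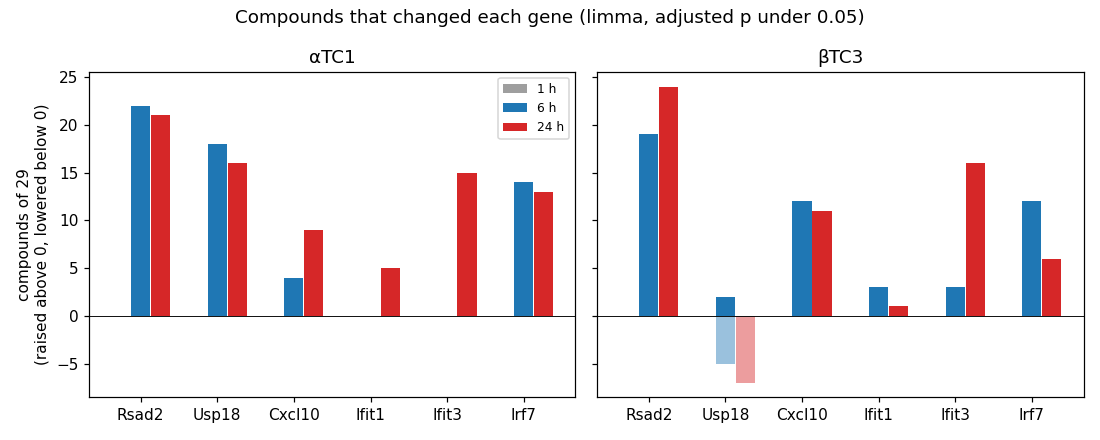
Number of compounds of 29 (y axis) that raised (above 0) or lowered (below 0) each of the 6 members by limma, with time by colour and 1 panel per line. Rsad2 reaches 22 and 21 compounds in αTC1 and 19 and 24 in βTC3, and Usp18 is the only member with bars below 0.

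Usp18, the brake on receptor signalling, started from different levels in the lines. On DMSO arrays at 24 h it averaged 6.37 ± 0.40 in αTC1 and 8.72 ± 0.22 in βTC3 (SD, n = 14 and 12), a difference of -2.37 ± 0.10 (SE, adjusted p = 1.26e-46). Rsad2 differed by 0.65 ± 0.19 in the other direction (adjusted p = 0.00173), and 59.2% of genes differed between the lines in DMSO. In αTC1 at 24 h Usp18 measured 7.32 to 8.12 (median 7.88) on 8 anilide arrays, all above the DMSO range of 5.75 to 7.05. The change was 1.58 ± 0.13 (adjusted p = 9.84e-18). On 22 hydroxamic acid arrays it spread from 5.71 to 7.61 (median 6.87), and 10 lay above that range.

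Hydroxamic acids differed among themselves in their effect on Usp18. In αTC1 at 24 h Usp18 measured 7.55 and 7.61 with SAHA and 7.46, 7.15 and 7.51 with LBH-589, all above DMSO. It measured 6.33, 6.41 and 6.63 with trichostatin A, 6.45, 6.73 and 6.76 with PXD101, and 6.17, 5.71 and 6.78 with ITF-2357, all within or below the DMSO range and none called. These 3 compounds were among those with the highest Rsad2 level. Batch means of Usp18 on the DMSO arrays of αTC1 at 24 h ran from 5.92 (batch 5) to 7.03 (batch 8). Levels from different batches thus had different baselines, and the parts of batch and compound were not tested. At 6 h each hydroxamic acid had raised Usp18 in αTC1, by 1.05 ± 0.08 as a class (adjusted p = 9.28e-19). The class change at 24 h was 0.46 ± 0.09 (adjusted p = 1.14e-05), lower by a called difference of -0.56 ± 0.13 (adjusted p = 0.000144). The difference of hydroxamic acids and anilides at 24 h was -1.12 ± 0.12 (adjusted p = 8.42e-12).

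In βTC3 Usp18 fell under some of the compounds that raised Rsad2. At 24 h it measured 7.42, 7.51 and 7.33 with PXD101, against 8.24 to 9.0 with a median of 8.73 on 12 DMSO arrays. The change was -1.33 ± 0.13 (adjusted p = 5.62e-15), and those of ITF-2357 and CRA-024781 were -1.19 and -1.06. No array of these 3 compounds overlapped DMSO. With apicidin the change was -0.78 ± 0.12. As a class hydroxamic acids changed Usp18 by -0.21 ± 0.08 at 6 h (adjusted p = 0.0189, not called without replicate 3) and by -0.56 ± 0.07 at 24 h (adjusted p = 3.05e-11), against 24% and 20.7% of genes called down. Within batches the difference of hydroxamic acid and DMSO arrays at 24 h was positive in 0 of 7. Anilides changed it by 0.38 ± 0.10 at 6 h (adjusted p = 0.00195) and by 0.06 ± 0.09 at 24 h, which was not called.

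**Figure D4:**
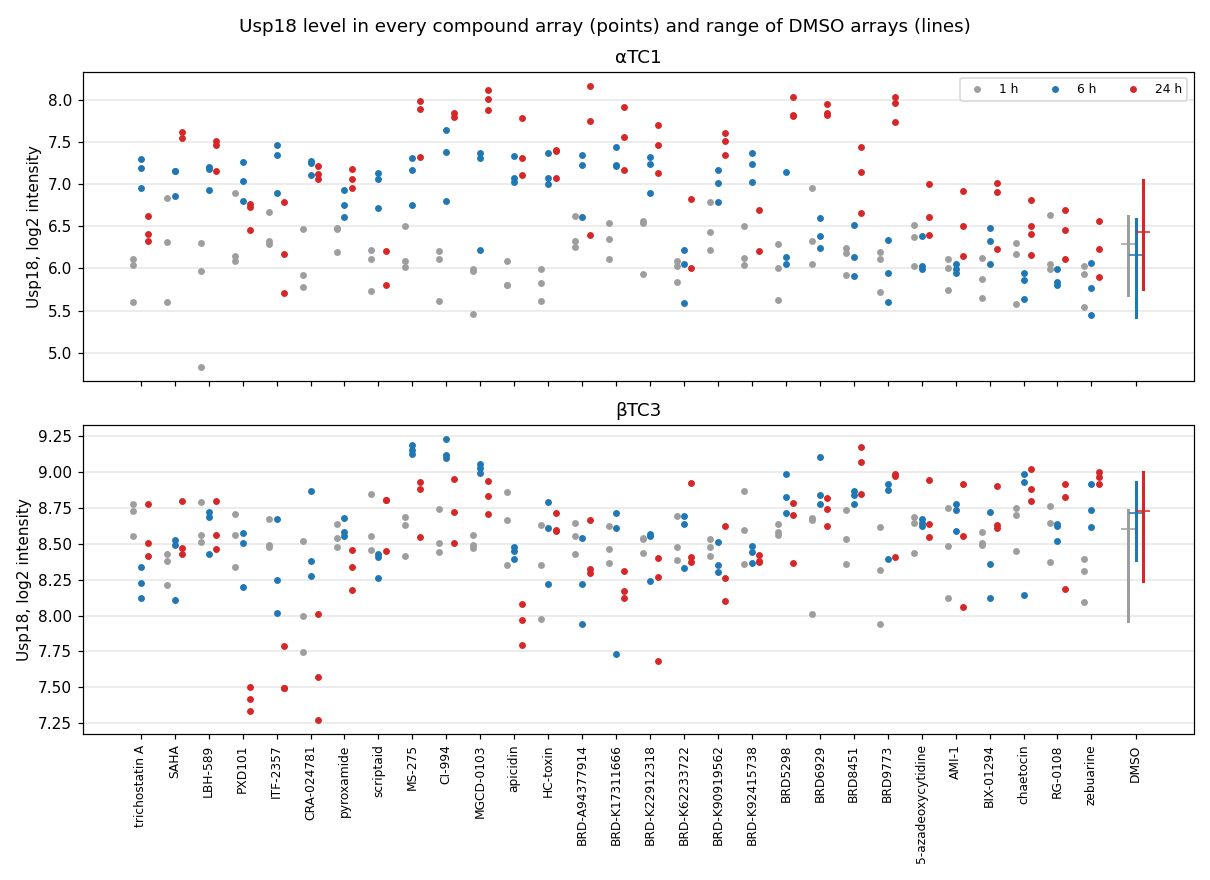
Usp18 log2 intensity (y axis) on each array of 29 compounds (points) and the range and median of DMSO arrays (vertical lines with a bar, at the right), αTC1 above and βTC3 below, time by colour. In βTC3 at 24 h the PXD101 arrays sit between 7.33 and 7.51, below the lowest DMSO array at 8.24, and in αTC1 the anilide arrays reach 7.32 to 8.12.

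Irf7, the regulator of interferon production, rose moderately. In αTC1 at 24 h it measured 4.44 and 4.41 with CI-994 and 4.25, 4.60 and 3.99 with trichostatin A, against 2.79 to 3.64 with a median of 3.03 on 14 DMSO arrays, with no overlap. The class changes were 0.84 ± 0.09 for hydroxamic acids (adjusted p = 1.15e-13) and 1.28 ± 0.12 for anilides (adjusted p = 6.56e-15). At 6 h hydroxamic acids had changed it by 0.60 ± 0.06 (adjusted p = 3e-13) and anilides by 0.07 ± 0.09, which was not called, and this difference between the classes was called (adjusted p = 4.76e-08). In βTC3 the changes at 24 h were 0.39 ± 0.09 (adjusted p = 0.000108) and 0.72 ± 0.11 (adjusted p = 1.25e-07).

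Cxcl10, the T cell chemokine, changed most under chaetocin at 24 h in both lines. In βTC3 at 24 h it measured 5.61, 6.47 and 6.09 with chaetocin, against 3.02 to 3.65 with a median of 3.42 on 12 DMSO arrays, a change of 2.69 ± 0.16 (adjusted p = 3.17e-24). In αTC1 it measured 3.79, 4.72, 4.39 and 4.25, against 2.74 to 3.39 with a median of 3.00 on 14 DMSO arrays, a change of 1.31 ± 0.13 (adjusted p = 4.93e-14). No chaetocin array overlapped DMSO, and the change in αTC1 minus that in βTC3 was -1.38 ± 0.20 (adjusted p = 1.49e-08). Rsad2 rose by 3.77 ± 0.35 and 3.03 ± 0.19 under chaetocin in αTC1 and βTC3. Chaetocin raised 23.4% of genes in αTC1 and 15.4% in βTC3, and its effect differed between the lines for 28.8%.

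At 6 h hydroxamic acids changed Cxcl10 by 0.32 ± 0.06 in αTC1 (adjusted p = 8.87e-06) and by 0.58 ± 0.08 in βTC3 (adjusted p = 3.92e-09), and anilides by -0.01 ± 0.09 and 0.23 ± 0.11, neither called (adjusted p = 0.975 and 0.107). The difference of hydroxamic acids and anilides at 6 h was 0.32 ± 0.08 in αTC1 (adjusted p = 0.000376) and 0.35 ± 0.10 in βTC3 (adjusted p = 0.00115), where 44.8% and 50.2% of genes differed between the classes. In βTC3 at 6 h, 19 of 24 hydroxamic acid arrays and 3 of 9 anilide arrays lay above every DMSO array. At 24 h the difference of the classes had the opposite sign, -0.50 ± 0.10 in αTC1 (adjusted p = 2.49e-05) and -0.74 ± 0.10 in βTC3 (adjusted p = 2.6e-09). Anilides then changed Cxcl10 by 0.90 ± 0.10 in αTC1 and 0.94 ± 0.11 in βTC3 (adjusted p = 9.16e-12 and 7.48e-12), and hydroxamic acids by 0.39 ± 0.07 and 0.21 ± 0.08 (adjusted p = 3.58e-06 and 0.0357). The last of these was not called without the batch term, after quantile normalization or without replicate 3. With 5-azadeoxycytidine in βTC3 it measured 3.82, 5.05 and 4.26, a change of 0.96 ± 0.16 (adjusted p = 1.13e-05), with every array above DMSO. Rsad2 changed there by 0.78 ± 0.19 (adjusted p = 0.00448), and 2 of its 3 arrays lay within the DMSO range.

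Ifit3, a partner of Ifit1, was called in αTC1 at 24 h and in βTC3 at 6 and 24 h. At 6 h in αTC1 its class changes were 0.09 for hydroxamic acids and 0.05 for anilides, neither called. In βTC3 at 6 h anilides changed it by 0.73 ± 0.13 (adjusted p = 2.65e-06), led by CI-994 at 1.10 ± 0.17 (adjusted p = 5.32e-07), and hydroxamic acids by 0.09, which was not called (adjusted p = 0.499). With trichostatin A in βTC3 at 24 h Ifit3 measured 5.73, 4.79 and 5.21, against 2.70 to 4.40 with a median of 3.58 on 12 DMSO arrays, a change of 1.68 ± 0.20 (adjusted p = 5.93e-11). In αTC1 its largest change came with SAHA, at 4.04 and 3.75 against 2.49 to 3.06 on 14 DMSO arrays (1.17 ± 0.13, adjusted p = 2.63e-10). The class changes at 24 h were 0.39 ± 0.06 for hydroxamic acids and 0.61 ± 0.08 for anilides in αTC1, and 0.71 ± 0.11 and 1.07 ± 0.14 in βTC3, all called. Ifit3 has a close copy, Ifit3b, whose transcripts its probe set could also bind. Ifit1 stayed between 2.77 and 3.67 on the arrays of hydroxamic acids at 24 h in both lines, near the low end of the array, where 5% of all gene values lie below 2.72. Its largest changes were 0.42 ± 0.08 with trichostatin A in αTC1 (adjusted p = 8.06e-06), and 0.50 ± 0.10 at 6 h with chaetocin in βTC3 (adjusted p = 5.25e-05).

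The effect on Rsad2 was larger in αTC1. The change in αTC1 minus that in βTC3 was 1.11 ± 0.14 at 6 h and 2.50 ± 0.23 at 24 h for hydroxamic acids (adjusted p = 4.64e-11 and 1.95e-18), and 0.77 ± 0.19 and 1.09 ± 0.31 for anilides (adjusted p = 0.00231 and 0.00316). For Usp18 it was 1.02 ± 0.11 and 1.52 ± 0.15 at 24 h for these classes (adjusted p = 7.62e-14 and 8.45e-16), and for Irf7 0.45 ± 0.12 and 0.57 ± 0.17. Ifit3 went the other way, with -0.32 ± 0.12 and -0.46 ± 0.16, where the first was not called without the batch term. Line differences were called for 32.1% of genes at 6 h and 35.8% at 24 h under hydroxamic acids, and for 10.3% and 27.9% under anilides.

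The neighbour of Rsad2, Cmpk2, which encodes a mitochondrial nucleotide kinase that is itself interferon-stimulated, lies on chromosome 12 with 12664 bases between the genes (Rsad2 at chr12:26442743-26456452 and Cmpk2 at chr12:26469117-26479837, GRCm38.p6). The gene on the other side, Rnf144a, was not analysed here. Cmpk2 rose under 18 compounds at 6 h and 19 at 24 h in αTC1, and under 8 at each time in βTC3, where 2 compounds lowered it at 24 h. With pyroxamide at 24 h it measured 5.76, 6.10 and 5.95 in αTC1, against a median of 4.52 on 14 DMSO arrays, with no overlap. Hydroxamic acids changed it by 1.03 ± 0.12 in αTC1 (adjusted p = 5.09e-11) and by -0.16 ± 0.09 in βTC3, which was not called, and the line difference was 1.19 ± 0.16 (adjusted p = 7.28e-11). At 6 h the changes under hydroxamic acids were 1.27 ± 0.12 in αTC1 and 0.26 ± 0.10 in βTC3 (adjusted p = 0.0217). Anilides raised Cmpk2 in both lines: by 1.48 ± 0.16 and 1.21 ± 0.17 in αTC1, and by 1.04 ± 0.13 (adjusted p = 1.2e-09) and 0.57 ± 0.11 (adjusted p = 1.55e-05) in βTC3, at 6 and 24 h.

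The order of compounds by their effect was compared between Rsad2 and every other gene with Pearson's r over the 29 changes at 24 h. All changes share their DMSO arrays, so r is a description. In αTC1 the 5 genes most like Rsad2 were Hsdl2 (r = 0.97), Rras (0.97), Eaf2 (0.97), Slc9a3r1 (0.96) and Plekhf1 (0.96). Cmpk2 came at place 127 (0.90) and Irf7 at place 209 (0.88) of 11806 genes, while Ifit3 (0.58), Cxcl10 (0.54), Usp18 (0.53) and Ifit1 (0.52) came at places 1899, 2058, 2124 and 2197. In βTC3 the 5 nearest were Dusp16 (0.93), Tspan15 (0.93), Rgs4 (0.92), Tes (0.92) and Khk (0.92). Irf7 came at place 520 (0.72), followed by Ifit3 (0.50), Cxcl10 (0.47), Cmpk2 (0.38), Ifit1 (-0.07) and Usp18 (-0.15). An r above 0.7 was reached by 9.56% of genes in αTC1 and 5.56% in βTC3.

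**Figure D5:**
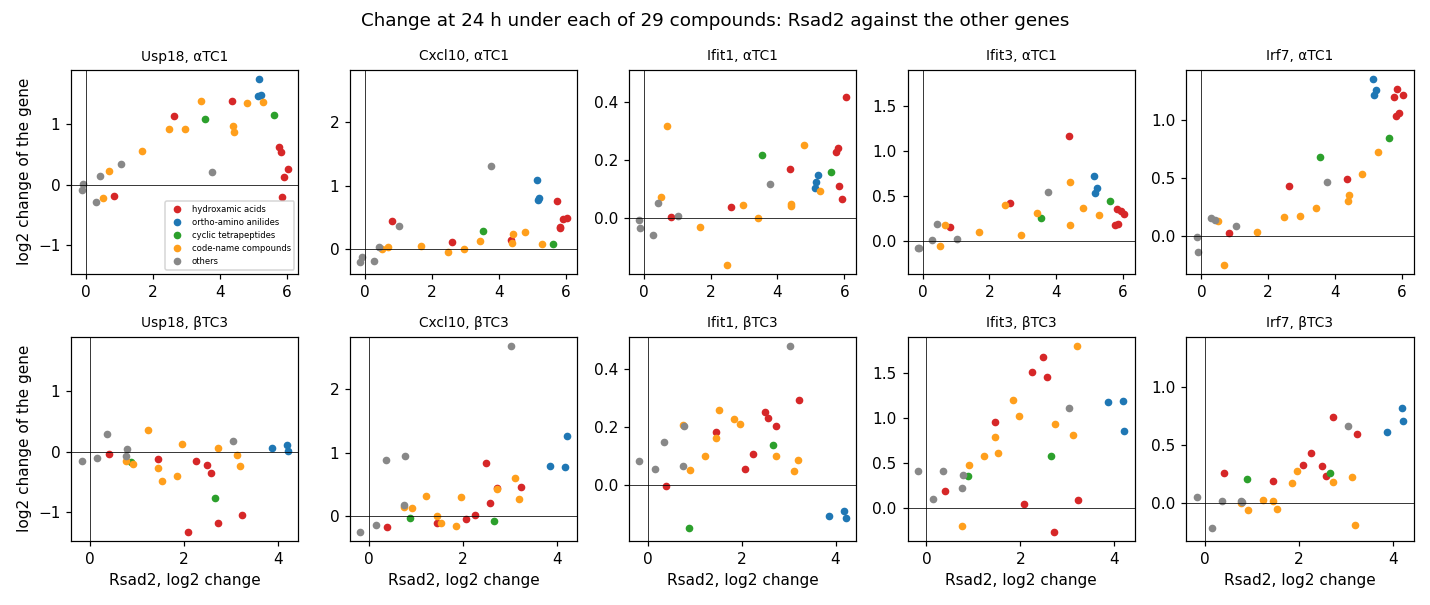
Log2 change at 24 h under each of 29 compounds, with Rsad2 on the x axis and another member on the y axis, αTC1 above and βTC3 below, 1 point per compound and colour by class. Irf7 climbs with Rsad2 in αTC1 (r = 0.88). Usp18 in αTC1 is highest under anilides and near 0 under some hydroxamic acids with the largest Rsad2 changes, and in βTC3 it lies at or below 0 under hydroxamic acids.

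Other parts of the interferon pathway moved unevenly. Of 9 interferon genes listed, 6 were measured (Ifnb1, Ifna1, Ifna2, Ifna4, Ifna5 and Ifng), and no array exceeded 3.95, in the low range of the array. At 24 h, 348 pairs of these genes, compounds and lines gave 3 calls up and 1 down. Of all pairs of gene and compound, 10.6% were called up and 10.7% down in αTC1, and 9.49% and 8.73% in βTC3. The largest change of an interferon gene was 0.50, of Ifna2 with chaetocin in αTC1. As a class, cyclic tetrapeptides raised 2 of the 6 in αTC1 at 24 h, Ifna4 by 0.27 and Ifna2 by 0.22, and 2103 of all 11807 genes. Hydroxamic acids and anilides gave 0 calls by limma at 24 h in either line, with 1 rise at an unadjusted p under 0.05. At 6 h in βTC3 hydroxamic acids raised 1 and lowered 1, against 26.2% and 24% of all genes. Transcripts at the level of the interferon genes are close to what the array can detect.

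Of 11 receptor and signalling genes measured, anilides at 24 h in αTC1 raised 5 and lowered 0, among them Stat2 by 1.47 ± 0.15 (adjusted p = 2.22e-13) and Jak1 by 1.32 ± 0.13 (adjusted p = 1.38e-13). In βTC3 they raised 3 and lowered 1, with Jak1 at 0.72 ± 0.09 and Stat2 at 0.40 ± 0.12. Hydroxamic acids raised 4 and lowered 1 in αTC1, led by the kinases Jak2 (0.93 ± 0.08) and Jak1 (0.90 ± 0.10), and raised 2 and lowered 2 in βTC3, where the receptor chain Ifnar2 changed by -0.39 ± 0.05. The list's median change was 0.18 for anilides and 0.08 for hydroxamic acids in αTC1, against -0.01 and 0.00 over all genes, and -0.04 and -0.09 in βTC3, against -0.02 and 0.01 over all genes. At 6 h hydroxamic acids raised 7 and lowered 2 in αTC1 (median 0.25) and raised 7 and lowered 1 in βTC3 (median 0.32), whereas anilides raised 2 and lowered 3 in αTC1 (median 0.03) and raised 0 and lowered 1 by limma in βTC3 (median -0.05), with 0 up and 3 down at an unadjusted p under 0.05. The medians over all genes at 6 h lay between -0.02 and 0.02. Of all genes, hydroxamic acids at 6 h raised 26.6% and lowered 24.3% in αTC1, and raised 26.2% and lowered 24% in βTC3. Anilides at 6 h raised 12.7% and lowered 13.9% in αTC1, and raised 12.9% and lowered 16.5% in βTC3. At 24 h anilides raised 21.2% and lowered 22.5% in αTC1, and raised 22% and lowered 21.7% in βTC3. Hydroxamic acids at 24 h raised 26.1% and lowered 24.3% in αTC1, and raised 22.5% and lowered 20.7% in βTC3.

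Of 12 sensors and regulators measured, anilides at 24 h raised 7 and lowered 0 in αTC1 and raised 7 and lowered 1 in βTC3, and hydroxamic acids raised 7 and lowered 0 in αTC1 and raised 6 and lowered 3 in βTC3. Of all genes, anilides then raised 21.2% and lowered 22.5% in αTC1, and raised 22% and lowered 21.7% in βTC3. Hydroxamic acids raised 26.1% and lowered 24.3% in αTC1, and raised 22.5% and lowered 20.7% in βTC3. In αTC1 Dhx58, an RNA sensor of the RIG-I family, averaged 7.75 on anilide arrays and 5.37 on DMSO arrays, a change of 2.18 ± 0.15 (adjusted p = 1.47e-20). Tlr3, a receptor for double-stranded RNA, changed by 1.14 ± 0.12 and the regulator Irf1 by 1.03 ± 0.09 there. The median of the list was 0.45 in αTC1 and 0.38 in βTC3 for anilides, against -0.01 and -0.02 over all genes.

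Of 31 other interferon-stimulated genes measured, hydroxamic acids raised 8 and lowered 3 in αTC1 and raised 3 and lowered 7 in βTC3 at 24 h, and anilides raised 9 and lowered 1 in αTC1 and raised 6 and lowered 6 in βTC3. The shares of all genes called up were 26.1% for hydroxamic acids and 21.2% for anilides in αTC1 and 22.5% and 22% in βTC3, and those called down were 24.3% for hydroxamic acids and 22.5% for anilides in αTC1 and 20.7% and 21.7% in βTC3. In αTC1 Ifit2, of the same family as Ifit1, changed by 1.10 ± 0.10 under hydroxamic acids (adjusted p = 7.88e-15) and 1.46 ± 0.15 under anilides (adjusted p = 7.46e-14). Ifi27l2a changed by 1.54 ± 0.11 under hydroxamic acids (adjusted p = 8.19e-21). Lgals3bp, a secreted glycoprotein gene, averaged 5.60 on hydroxamic acid arrays and 7.87 on DMSO arrays of αTC1 (change -2.21 ± 0.11, adjusted p = 3.99e-28). In βTC3 Rtp4, Oasl2 and the GTPase gene Irgm1 fell under both classes, with changes from -1.07 to -0.73. Lgals3bp fell under both classes there too, by -1.49 ± 0.09 under hydroxamic acids and -0.83 ± 0.12 under anilides. The list's median was 0.04 in αTC1 and -0.01 in βTC3 for hydroxamic acids.

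Leukocyte markers were compared beside these results. In αTC1 at 24 h the summed level of 6 such genes (log2 of the summed intensity) had a median of 6.27 on hydroxamic acid arrays (5.96 to 6.78) and 6.14 on anilide arrays (5.84 to 6.47), against 6.01 on DMSO arrays (5.82 to 6.22), with 1 of 6 called up in each class. In βTC3 it was 5.82 (5.66 to 5.96) and 5.78 (5.69 to 5.94), against 5.80 (5.75 to 5.95). The ranges of both classes overlap that of DMSO in both lines. Cyclic tetrapeptide arrays of αTC1, at 6.23 to 6.60, lay above the DMSO range. Of 3 fibroblast markers, 1 was called up by hydroxamic acids and 1 by anilides in each line. The summed level of the 3 in αTC1 had a median of 4.82 (4.52 to 5.21) on hydroxamic acid arrays and 5.00 (4.89 to 5.14) on anilide arrays, against 4.71 (4.61 to 4.91) on DMSO arrays. In βTC3 it was 4.75 (4.55 to 5.06) and 4.83 (4.62 to 5.06), against 4.65 (4.45 to 4.70). Of 3 endothelial markers 0 were called up by limma in either class or line, and 0 at an unadjusted p under 0.05. Their summed level in αTC1 had medians of 4.73 (4.59 to 5.05) and 4.67 (4.55 to 4.84), against 4.73 (4.52 to 5.00) on DMSO arrays, and in βTC3 of 4.64 (4.48 to 4.91) and 4.67 (4.55 to 4.77), against 4.68 (4.48 to 4.86). The part of these shifts in the changes of the interferon-stimulated genes was not tested.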

How the data were processed

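RNA of whole wells was hybridised to Affymetrix mouse arrays, 1 sample per array. Per the submitters' processing notes the authors used RMA, whose version is not given in the sources used here, and deposited linear intensities for 22716 probe sets. Log2 was taken of these deposited intensities, since the design allowed for either scale. Of the probe sets, 18003 named 1 gene in the platform annotation, 287 several and 4426 none, which gave 11807 genes. For a gene with several probe sets, the brightest on average was used.

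Each line and time was fitted with limma 3.58.1 (R 4.3.3), with all compounds and DMSO together and the batch number of the titles (4 to 10) as a fixed term. P-values were adjusted by the Benjamini-Hochberg method over all genes within a comparison, and an adjusted p under 0.05 was called. A class effect is the mean over its compounds with equal weight. Differences between lines or times came from joint fits. The labels do not say whether replicate arrays came from separate cultures, so the spread may be technical, and the number of arrays limits the precision. No 2 arrays were identical.

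The members, classes and gene lists were chosen with earlier results of these data known. The text names all measured members, up to 6 called genes per list, class and line at 24 h with the largest effects, the neighbours of Rsad2, and per line the 5 genes most like Rsad2. On simulated data with the 11807 genes, the fit recovered 95% of changes of 0.5 and 100% of changes of 1 (log2) for hydroxamic acids in αTC1 at 24 h, and 65% and 97% for BIX-01294, with 8 false calls each. The alternatives tried were quantile normalization, leaving the batch out of the model, the plate as a random effect, median centring, a filter on low genes, other probe sets, fewer arrays in the fit, 1 adjustment over all comparisons, a replicate block and leaving out each replicate.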

Additional observations from a re-analysis of the deposited data

Results flagged for a closer look

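The class effects that differed between the lines, by a test of the difference itself (effect in αTC1 minus effect in βTC3, limma, joint fit), are given here as values. For Rsad2 the difference was 1.11 for hydroxamic acids and 0.77 for anilides at 6 h (adjusted p = 4.64e-11 and 0.00231), and 2.50 and 1.09 at 24 h (adjusted p = 1.95e-18 and 0.00316). For Usp18 it was 1.26 and 0.80 at 6 h (adjusted p = 4.41e-18 and 6.56e-05), and 1.02 and 1.52 at 24 h (adjusted p = 7.62e-14 and 8.45e-16). Cxcl10 differed by -0.26 for hydroxamic acids at 6 h (adjusted p = 0.0393). Ifit3 differed by -0.68 for anilides at 6 h (adjusted p = 0.000181), and at 24 h by -0.32 for hydroxamic acids and -0.46 for anilides (adjusted p = 0.0308 and 0.0245). Irf7 differed by 0.45 for hydroxamic acids and 0.57 for anilides at 24 h (adjusted p = 0.00168 and 0.00499).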

How the results depend on the processing

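No result that was called in the main fit or in the alternative changed direction. Changes of sign among values called in neither were not counted. The number of compounds that raised Rsad2 ranged over 20 to 21 and 20 to 22 in αTC1 and 19 to 20 and 20 to 23 in βTC3 (6 and 24 h) when each replicate was left out, and over 21 to 23, 20 to 22, 19 and 22 to 25 under 7 other alternatives. With its 2 other probe sets, a choice added after seeing the data for these counts, it was 18 to 19 and 20 in αTC1 and 16 and 16 to 17 in βTC3. The pairs called up among the other members ranged over 36 to 37 and 46 to 49 in αTC1 and 24 to 29 and 29 to 31 in βTC3 without each replicate. When genes below the median level were left out, these pairs were 18 and 16 in αTC1 and 2 and 0 in βTC3 by limma, because 2 of the 6 measured members, Rsad2 and Usp18, were among the 5904 genes kept. Without the batch term, hydroxamic acids minus anilides for Rsad2 in αTC1 at 24 h was -0.72 and called (adjusted p = 0.0318); the cause was not tested. With the replicate number as a block, on compound arrays only, this difference was -0.44 in αTC1 (adjusted p = 0.330) and -1.97 in βTC3. Under the block the only class difference to lose its call was Ifit3 in αTC1 at 24 h (-0.22, adjusted p = 0.0608). Same-numbered arrays correlated from -0.26 to 0.51, so the numbers were not taken as pairs. Among the effects and differences of single members other than Rsad2, 373 values kept their status, either called in both fits or called in neither. A call was gained by 7 and lost by 8. Calls lost in limma include hydroxamic acids on Usp18 in βTC3 at 6 h without replicate 3 (-0.17, adjusted p = 0.101). They also include hydroxamic acids on Ifit1 in αTC1 at 24 h after median centring (0.09, adjusted p = 0.0633). Signal near the low end of the array limits Ifit1, Ifit3, Irf7, Cxcl10 and the interferon genes.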
